A study of Homo sapiens with 12 samples.

Results

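Laminins are the glycoproteins that start the assembly of a basement membrane, and the genes described here encode 9 of their chains, 5 alpha (LAMA1 to LAMA5), 3 beta (LAMB1 to LAMB3) and 1 gamma (LAMC1). They were taken by gene symbol from an RNA-seq table of 23346 genes, and all 9 had a row. GCTM-5 is a monoclonal antibody to a glycoprotein complex shed by pancreatic and biliary cells, and the study asked how cells that carry the antigen differ in expression from cells that do not. Each line was sorted with the antibody in triplicate, which gave 4 groups of 3 samples, SW1990 negative, SW1990 positive, CFPAC-1 negative and CFPAC-1 positive. SW1990 and CFPAC-1 are established human pancreatic adenocarcinoma lines, grown as monolayers and given no further treatment, and the gates left out weakly stained cells. All 4 groups went through the same staining and sorting. The triplicates are sorts of 1 line each, and p-values therefore measure the spread between sorts. In limma that spread was pooled over the 4 groups, so a gene has the same standard error in both lines. RNA came from whole sorted fractions, in which fewer cells with a transcript and less of it per cell cannot be told apart.

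Each laminin is a cross-shaped or shortened trimer of an alpha, a beta and a gamma chain, joined in a long coiled coil inside the cell, and it is named by the numbers of its chains. Alpha chains carry the globular domains that integrins and dystroglycan bind, and the short arms of the chains join laminins into a sheet. Laminin-332 anchors epithelia to the basement membrane through hemidesmosomes, laminin-511 and laminin-521 are widespread in epithelial basement membranes, laminin-411 and laminin-421 are typical of vessel walls and mesenchymal cells, laminin-111 is mainly embryonic and laminin-211 belongs to muscle and nerve. Levels are given as RPKM, reads divided by gene length and by library size, so that chains can be set beside each other. Library totals recovered from the values ran from 9969697 to 26159330 reads, and CFPAC-1 positive replicate 3, with the lowest total, also lay farthest from the other libraries of its group. Its root mean square deviation from the group mean was 0.42 on the log2 scale, against 0.26 to 0.34 in the other 11 libraries.

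In SW1990 the antigen positive cells held more mRNA of the laminin-332 chains LAMA3 and LAMB3 and of LAMA5, and less of LAMA4, LAMB1, LAMB2 and LAMC1. In CFPAC-1 the same comparison gave smaller differences, and a single chain, LAMB2, passed the test. Before those values, the starts of 4 of these genes are shown, because LAMA3 and LAMB3 moved up together and LAMA4 and LAMC1 moved down together in SW1990. RefSeq (GRCh38.p14) gave 250 bases before a transcript start for 8 of the 9 genes, in 10 windows. The files themselves are on GRCh37, and the windows are not coordinates of the files. The windows shown are chr18:23872770-23873019 for LAMA3 (plus strand), chr1:209651375-209651624 for LAMB3 (minus), chr6:112254568-112254817 for LAMA4 (minus) and chr1:183023170-183023419 for LAMC1 (plus). They are written 5′ to 3′ on the strand of the gene, with every match to the AP-1 motif TGANTCA or the E-box CAGGTG, on either strand, in capitals.
LAMA3: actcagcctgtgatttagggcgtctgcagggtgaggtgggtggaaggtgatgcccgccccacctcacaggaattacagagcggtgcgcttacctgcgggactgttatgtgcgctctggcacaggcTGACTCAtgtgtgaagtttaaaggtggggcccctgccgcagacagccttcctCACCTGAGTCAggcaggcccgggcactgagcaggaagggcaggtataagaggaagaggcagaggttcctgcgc
LAMB3: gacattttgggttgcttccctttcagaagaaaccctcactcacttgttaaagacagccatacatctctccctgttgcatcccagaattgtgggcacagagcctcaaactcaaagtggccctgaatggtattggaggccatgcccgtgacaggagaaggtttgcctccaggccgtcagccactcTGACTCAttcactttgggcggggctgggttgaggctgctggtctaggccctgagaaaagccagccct
LAMA4: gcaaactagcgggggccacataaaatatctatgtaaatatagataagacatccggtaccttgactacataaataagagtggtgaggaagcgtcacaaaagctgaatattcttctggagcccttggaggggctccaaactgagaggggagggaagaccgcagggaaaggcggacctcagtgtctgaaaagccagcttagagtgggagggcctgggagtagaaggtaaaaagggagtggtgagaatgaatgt
LAMC1: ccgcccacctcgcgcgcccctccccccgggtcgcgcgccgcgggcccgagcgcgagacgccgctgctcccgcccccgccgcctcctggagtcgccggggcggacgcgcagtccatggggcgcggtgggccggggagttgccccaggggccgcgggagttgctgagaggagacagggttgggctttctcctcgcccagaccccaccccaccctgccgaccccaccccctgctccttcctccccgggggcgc

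The LAMA3 window held 2 AP-1 matches, which began at -125 and -69 from the start, and an E-box on the other strand at -73 that shared bases with the second of them. The LAMB3 window shown, whose start lies 1051 bases inside the gene, held 1 AP-1 match, at -67. No other LAMB3 window held that motif, including the one at the gene's own start. That window, 1051 bases upstream, held an E-box at -218, and the LAMA5 window held one at -201. LAMA5, which also rose in SW1990, had no AP-1 match in its window. None of the windows of LAMA2, LAMA4, LAMB1, LAMB2 and LAMC1 held either motif. Of 35116 RefSeq windows of this length, 6.57% held the AP-1 motif and 17.5% the E-box. GC boxes (GGGCGG, either strand), present in 42.6% of all windows, numbered 5 in LAMA5, 4 in LAMB1 and 3 in LAMC1, the windows richest in G and C at 82.8%, 70.4% and 79.6%. LAMA4 and LAMA2, at 48.4% and 53.2%, had none. These are matches of letters, and no binding was measured.

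LAMA3, the alpha chain of laminin-332, was the chain that differed most in SW1990. It lies on chromosome 18 of GRCh37 (21269417 to 21536186, plus strand). Its level was 3.03, 2.72 and 2.88 RPKM in the 3 negative samples and 21.3, 14.2 and 16.0 RPKM in the 3 positive samples. Every positive sample lay far above every negative one. The group means were 2.88 ± 0.15 and 17.1 ± 3.70 RPKM (SD, n = 3), and the log2 fold change on log2(RPKM + 0.1) was 2.51 (SE 0.22), a 5.71-fold rise with an adjusted p of 5.70e-06 in limma. Behind the negative values were 545 to 678 reads a sample, and behind the positive ones 2572 to 4417. The authors divided by a length of 10701 bases, recovered from the values, which is near that of the longest GENCODE transcript (10651 bases), whereas the main short transcript has 5618 bases. The window shown for LAMA3 lies at a start 183567 bases inside the gene, which is where that short transcript begins. A sample holding the short transcript alone would be given too low a level per length, and the share of each transcript was not measured.

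LAMB3 pairs with LAMA3 in laminin-332 and is known from no other common trimer. The gene is on chromosome 1 (209788215 to 209825770, minus strand). Negative SW1990 samples had 33.1, 32.2 and 28.6 RPKM and positive samples 83.1, 69.8 and 72.5 RPKM, again without overlap. LAMB3 rose 2.39-fold, by 1.26 on the log2 scale (SE 0.20, adjusted p = 0.000480).

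LAMA4, the alpha chain of laminin-411 and laminin-421, went the other way in SW1990. On chromosome 6 (112429134 to 112576141, minus strand), it had 7.64, 8.18 and 6.91 RPKM in negative samples and 3.08, 3.18 and 2.88 RPKM in positive samples. The positive samples were all below the negative ones and spread little. LAMA4 fell by 1.28 on the log2 scale (SE 0.17, adjusted p = 0.000147).

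LAMC1, the gamma chain of most laminins, was the most abundant of the 9 chains per length in negative SW1990 cells. It is on chromosome 1 (182992555 to 183114727, plus strand), and it measured 54.7, 56.9 and 57.6 RPKM in negative samples against 28.5, 27.7 and 29.1 RPKM in positive samples. It fell by 0.99 on the log2 scale (SE 0.09, adjusted p = 7.37e-06), just under 2-fold. LAMB1, the beta chain of laminin-111, laminin-411 and laminin-511 (chromosome 7, 107564244 to 107643658, minus strand), had 40.9, 41.3 and 39.6 RPKM in negative and 27.2, 24.1 and 27.3 RPKM in positive samples. LAMB1 fell by 0.63 (SE 0.09, adjusted p = 0.000212). LAMB2, the beta chain of laminin-421 and laminin-521 (chromosome 3, 49158547 to 49170551, minus strand), had 25.2, 26.2 and 29.8 RPKM in negative samples against 15.0, 14.5 and 16.2 RPKM in positive ones. LAMB2 fell by 0.82 (SE 0.13, adjusted p = 0.000456). None of these 3 chains had a positive sample that reached the lowest negative one. A pseudogene beside LAMB2, LAMB2P1, was given reads equal to 0.520% to 4.27% of those of LAMB2, depending on the group, and how reads that match both were counted is not stated.

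LAMA5, the alpha chain of laminin-511 and laminin-521 (chromosome 20, 60883011 to 60942368, minus strand), had 21.0, 17.7 and 22.0 RPKM in the negative cells of SW1990 and 33.2, 32.3 and 36.2 RPKM in the positive cells. It rose by 0.75 on the log2 scale (SE 0.15, adjusted p = 0.00303), without overlap of the groups. LAMA5 was thus the other alpha chain that was higher in the positive cells, and the lower chains were LAMA4, LAMB1, LAMB2 and LAMC1. The beta and gamma chains among these are partners of LAMA5 as well as of LAMA4.

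Counted together, 3 of the 7 fitted chains changed over 2-fold with an unadjusted p under 0.01 in SW1990, the thresholds the study names. LAMA3 and LAMB3 were higher and LAMA4 lower, against 12.1% of all 16236 genes fitted, 4.59% of them higher and 7.48% lower. At an adjusted p under 0.05 with no fold threshold, 7 of 7 chains passed, 3 higher and 4 lower, against 28.2% of all genes, 11.3% of them higher and 16.9% lower. In 7 of 7 the positive and negative samples did not overlap, as in 43.3% of all genes. The median change of the 7 was -0.63 on the log2 scale, and that of all genes was -0.037. LAMA1 and LAMA2 had a mean below the minimum of 0.1 RPKM and were not fitted.

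**Figure D1:**
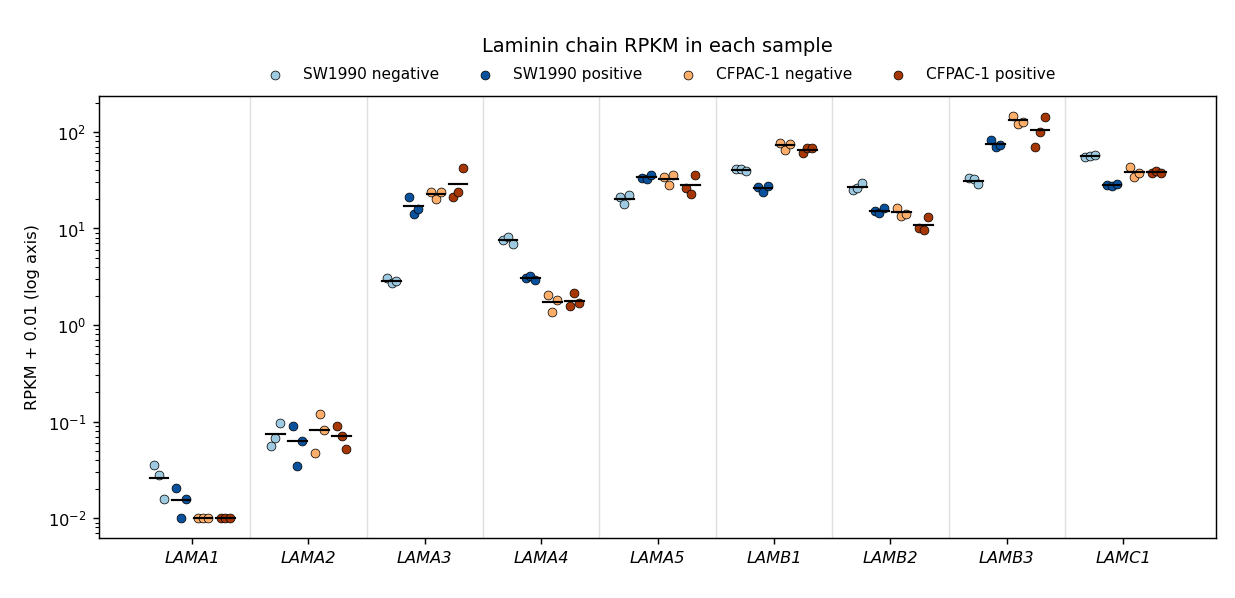
RPKM plus 0.01 of each laminin chain on a log axis, with 1 point per sample (3 per group) and a bar at each group mean. LAMA3 sits near 3 RPKM in SW1990 negative cells and between 14.2 and 42.2 RPKM in the other 9 samples, and LAMA1 and LAMA2 lie far below the other chains.

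Markers of epithelial and mesenchymal cells moved in SW1990 along with these chains. Of 6 epithelial markers (KRT8, KRT18, KRT19, KRT7, EPCAM and CDH1), 5 were called higher, against 4.59% of all genes. Their summed RPKM was 1595 to 1942 in negative and 4360 to 4841 in positive samples. Of 7 mesenchymal markers (VIM, ZEB1, ZEB2, CDH2, FN1, SNAI2 and TWIST1), 5 were called lower, against 7.48% of all genes. TWIST1 was at 0 in every sample, and the sum of the 7 was 1220 to 1401 in negative and 217 to 404 in positive samples. Of 10 fibroblast markers, 6 were under 0.1 RPKM in negative and 7 in positive SW1990 cells, the sums were 14.2 to 24.9 and 4.96 to 6.40, and THY1 was at 0 throughout. The sum of 6 endothelial markers was 14.9 to 18.9 RPKM in negative and 1.47 to 2.05 in positive cells, and CDH5 made up most of it, at 15.6 ± 1.82 and 1.33 ± 0.26 RPKM, with PECAM1 at 0.717 ± 0.21 and 0.363 ± 0.13 and EMCN at 0 in every sample. The sum of 6 leukocyte markers was 35.6 to 49.9 and 16.2 to 34.7, most of it CD68, at 42.0 ± 7.27 and 21.7 ± 9.56 RPKM. In CFPAC-1 the epithelial sum was 5411 to 6173 RPKM in negative and 6676 to 8162 in positive samples. There 3 of the 6 passed an adjusted p of 0.05, all higher and under 2-fold, against 36.5% of all genes. The mesenchymal sum was 558 to 759 and 428 to 600 RPKM in that line. Past an adjusted p of 0.05 were 3 of 6 fitted (ZEB1, CDH2 and FN1), all lower, against the same 36.5%. Of these ZEB1 was called, against 9.78% of all genes called. Fibroblast sums in CFPAC-1 were 2.99 to 3.17 and 2.92 to 3.51, endothelial sums 0.989 to 1.49 and 0.751 to 0.995, and leukocyte sums 179 to 210 and 163 to 228. The part of these markers in the laminin values was not tested.

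In CFPAC-1, LAMA3 had 23.6, 20.3 and 23.7 RPKM in negative and 21.3, 23.7 and 42.2 RPKM in positive samples. The positive samples overlapped the negative ones, and the highest value came from the library that stood apart. The log2 fold change was 0.30 (95% interval -0.18 to 0.78, adjusted p = 0.317), and -0.0035 without that library. LAMB3, the most abundant chain per length in this line, had 147, 122 and 128 RPKM in negative and 69.9, 99.4 and 143 RPKM in positive samples. Its change was -0.40 (-0.83 to 0.032, adjusted p = 0.135). Without CFPAC-1 positive replicate 3 it was -0.66, with an adjusted p of 0.00545.

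LAMB2 was the chain that passed the test in CFPAC-1. It had 16.4, 13.4 and 14.2 RPKM in negative and 9.98, 9.58 and 13.1 RPKM in positive samples, which did not overlap by a narrow margin. LAMB2 fell by 0.43 on the log2 scale (SE 0.13, adjusted p = 0.0204), and by 0.57 without the library that stood apart (adjusted p = 0.00209). Its adjusted p was 0.0822 without CFPAC-1 negative replicate 1, 0.0730 without positive replicate 1 and 0.0696 without positive replicate 2, and 0.0786 when CFPAC-1 was fitted alone. LAMA5 had 33.8, 28.5 and 36.0 RPKM in negative and 26.5, 22.6 and 35.6 RPKM in positive samples, a change of -0.23 (-0.57 to 0.10, adjusted p = 0.258). Without the same library LAMA5 changed by -0.41, with an adjusted p of 0.0250.

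LAMC1, LAMB1 and LAMA4 lay closest together in the fractions of CFPAC-1. LAMC1 had 43.6, 33.8 and 37.2 RPKM in negative and 37.7, 39.7 and 37.2 RPKM in positive samples, a log2 difference of 0.0080 (-0.19 to 0.20). LAMB1 had 77.6, 65.3 and 75.3 RPKM in negative and 60.6, 67.8 and 68.7 RPKM in positive samples, a difference of -0.14 (-0.34 to 0.051). LAMA4 had 2.04, 1.34 and 1.83 RPKM in negative and 1.57, 2.12 and 1.66 RPKM in positive samples, a difference of 0.046 (-0.33 to 0.42). For LAMC1 and LAMA4 the sign of the difference turned when samples were centred on their medians, to -0.092 and -0.054. That centring moved the median of all genes from 0.051 to -0.049.

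No chain was called in CFPAC-1 by limma (0 of 7, against 9.78% of all genes), nor by voom on recovered reads, and 1 of 7 had an unadjusted p under 0.05. At an adjusted p under 0.05 that 1 of 7, LAMB2, passed, against 36.5% of all genes. The groups did not overlap for 1 of 7 chains, against 48.5% of genes. The 95% interval of each of the 7 changes stayed within 2-fold in either direction.

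**Figure D2:**
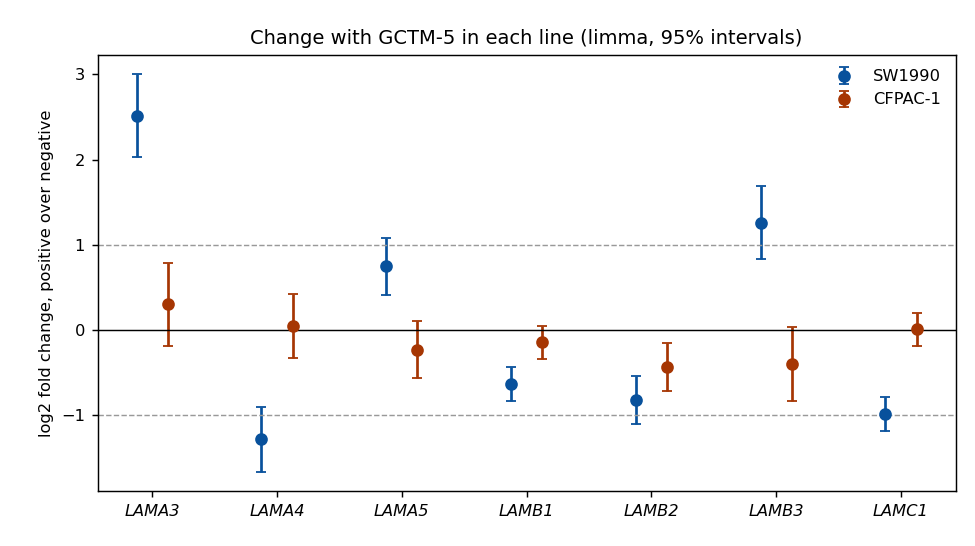
Log2 fold change of positive over negative cells for the 7 fitted chains in SW1990 and CFPAC-1, with 95% intervals from limma and dashed lines at 2-fold. SW1990 values run from -1.28 (LAMA4) to 2.51 (LAMA3), and CFPAC-1 values from -0.43 (LAMB2) to 0.30 (LAMA3).

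The difference between the lines was tested directly, as the SW1990 change minus the CFPAC-1 change. It passed an adjusted p of 0.05 for 6 of the 7 chains, 3 of them upward and 3 downward, against 26.9% of all genes, 9.16% upward and 17.8% downward. LAMA3 (2.21, SE 0.31, adjusted p = 0.000382), LAMB3 (1.66, SE 0.28, adjusted p = 0.00115) and LAMA5 (0.98, SE 0.22, adjusted p = 0.00593) changed more upward in SW1990. LAMA4 (-1.33, SE 0.24, adjusted p = 0.00194), LAMC1 (-0.99, SE 0.13, adjusted p = 0.000188) and LAMB1 (-0.49, SE 0.13, adjusted p = 0.0138) changed more downward there. For LAMB2, which fell in both lines, the difference was -0.39 (-0.78 to 0.0076, adjusted p = 0.136). Centring samples on their medians left LAMB1 short of the threshold (-0.34, adjusted p = 0.0943), with 5 chains passing.

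The lines were also set side by side within each fraction. Among negative cells, LAMA3 was lower in SW1990 than in CFPAC-1 by 2.93 on the log2 scale (-2.93, adjusted p = 2.32e-07) and LAMB3 by 2.07 (-2.07, adjusted p = 1.70e-06), whereas LAMA4 was higher by 2.08 (adjusted p = 5.00e-07). Those 3 of 7 were called, against 36.9% of all genes, and 7 of 7 passed an adjusted p of 0.05, against 68.9%. Among positive cells the called chain was LAMB1, lower in SW1990 by 1.32 (-1.32, adjusted p = 1.31e-07), 1 of 7 against 28.5% of all genes, and 5 of 7 passed an adjusted p of 0.05, against 62.3%. There the LAMA3 difference was -0.71 (adjusted p = 0.0146, or 0.0603 without SW1990 positive replicate 2), that of LAMA4 0.75 (adjusted p = 0.00238) and that of LAMB3 -0.41 (adjusted p = 0.0881), with LAMB3 samples of the lines overlapping. Without CFPAC-1 positive replicate 1 the LAMB3 difference was -0.67 (adjusted p = 0.00290). These comparisons share their samples with those of positive against negative cells.

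Because a ratio of chains within a sample does not depend on the scaling between samples, LAMB3 was also set against LAMB1 and LAMA3 against LAMA5. In SW1990 there were 0.723 to 0.811 LAMB3 per LAMB1 by RPKM in negative samples and 2.65 to 3.05 in positive samples, a 3.71-fold higher ratio. LAMA3 per LAMA5 went from 0.135 to 0.158 in negative to 0.440 to 0.643 in positive samples, a 3.41-fold higher ratio. Both comparisons had the smallest p that 3 against 3 samples allow in a 2-sided exact permutation test, 0.1. In CFPAC-1 the LAMB3 to LAMB1 ratio was 1.69 to 1.89 in negative and 1.15 to 2.08 in positive samples (exact permutation p = 0.4). The CFPAC-1 ratio of LAMA3 to LAMA5 was 0.658 to 0.715 in negative and 0.804 to 1.19 in positive samples, higher in each of the 3 (exact permutation p = 0.1). LAMB2 per LAMB1 was 0.619 to 0.755 in SW1990 negative cells and 0.555 to 0.606 in positive ones, and 0.190 to 0.212 and 0.143 to 0.192 in CFPAC-1 (exact permutation p = 0.1 and 0.2).

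As a share of all alpha chain RPKM, LAMA3 made up 9.36% ± 0.28 in SW1990 negative and 31.5% ± 4.73 in SW1990 positive cells (SD, n = 3). LAMA4 made up 24.8% ± 3.44 and 5.66% ± 0.64 of it. LAMA5 held the largest share in both, 65.6% ± 3.63 and 62.8% ± 4.51. The LAMA5 share thus changed by less than its spread while the shares of LAMA3 and LAMA4 changed places. In CFPAC-1, LAMA3 made up 39.5% ± 1.03 of alpha RPKM in negative and 48.3% ± 5.04 in positive cells, and LAMA4 3.02% ± 0.39 and 3.21% ± 1.14. Among beta chains, LAMB3 was 31.6% ± 2.19 of the sum in SW1990 negative cells and 64.4% ± 1.92 in positive cells, near the 60.2% ± 1.21 and 56.5% ± 6.91 of CFPAC-1. LAMB1 held 41.0% ± 0.53 and 22.5% ± 0.96 in SW1990, and LAMB2 27.4% ± 2.69 and 13.1% ± 1.02. The alpha sum itself was 30.8 ± 1.78 RPKM in negative and 54.1 ± 4.05 RPKM in positive SW1990 cells, and the beta sum 99.0 ± 0.91 and 117 ± 8.47.

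**Figure D3:**
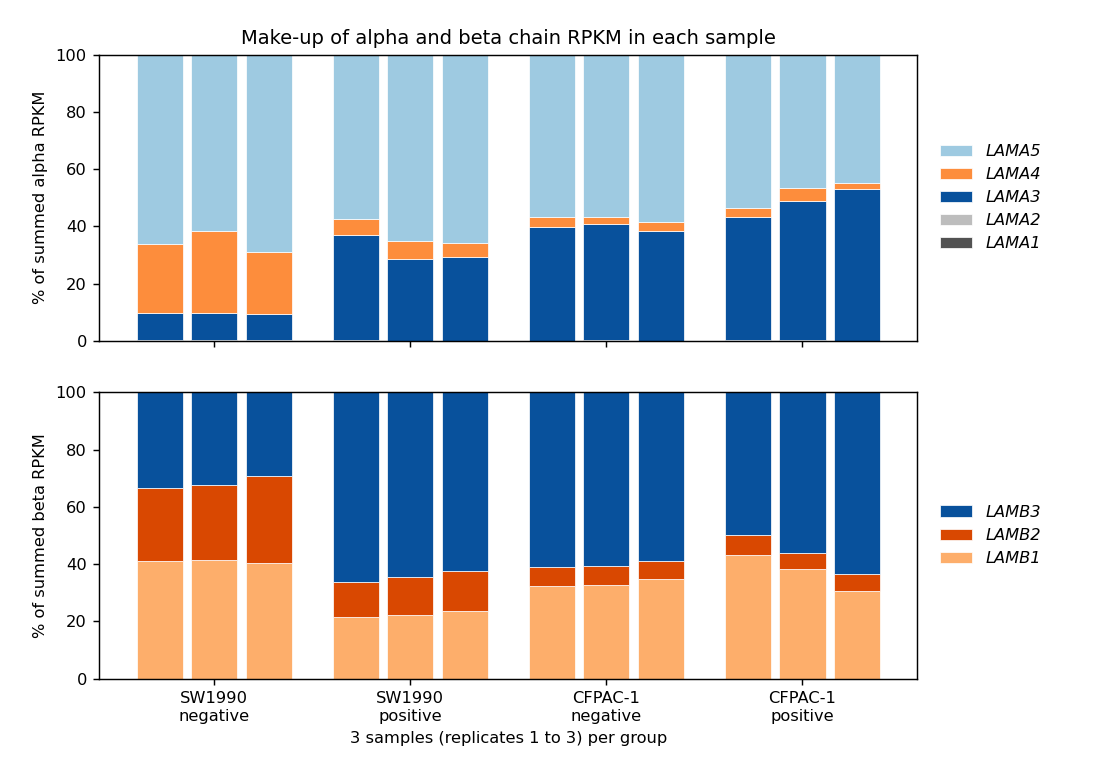
Share of summed alpha chain RPKM (top) and summed beta chain RPKM (bottom) held by each chain, with 1 stacked bar per sample and 3 samples per group. The LAMB3 share is 29.2% to 33.4% in the SW1990 negative samples and 49.8% to 66.3% in the other 9.

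Grouped by trimer, the chain with the lowest RPKM gives an upper limit on full transcript sets of that trimer, provided the length used fits the transcripts present. It says nothing of protein. Where the short LAMA3 transcript is present, the LAMA3 level is too low to be such a limit. Chains such as LAMC1 serve several trimers, so these limits cannot be added together. For laminin-332, LAMA3 was the lower of the 2 chains measured in all 4 groups, at 2.88 ± 0.15 RPKM in SW1990 negative, 17.1 ± 3.70 in SW1990 positive, 22.5 ± 1.91 in CFPAC-1 negative and 29.1 ± 11.5 in CFPAC-1 positive cells. SW1990 negative cells stood below the other groups, whose samples ran from 14.2 to 42.2 RPKM. For laminin-511 the lowest chain was LAMA5 at 20.2 ± 2.22 RPKM in SW1990 negative cells and LAMB1 at 26.2 ± 1.84 in SW1990 positive cells, and LAMA5 again in CFPAC-1, at 32.8 ± 3.88 and 28.2 ± 6.65. For laminin-521 it was LAMA5 at 20.2 RPKM in SW1990 negative cells and LAMB2 elsewhere, at 15.3 ± 0.86, 14.7 ± 1.56 and 10.9 ± 1.95. The alpha chain with rising level and the beta chain with falling level thus crossed in SW1990 positive cells. For laminin-411 and laminin-421, LAMA4 was lowest in every group, at 7.58 ± 0.63, 3.05 ± 0.15, 1.74 ± 0.36 and 1.78 ± 0.29 RPKM in the same order. The order of LAMA4 from SW1990 negative to SW1990 positive to CFPAC-1 held for every sample, and the CFPAC-1 fractions overlapped each other.

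LAMA1 and LAMA2, the alpha chains of laminin-111 and of laminin-211 and laminin-221, were at or near the limit of the depth. LAMA1 (chromosome 18, 6941741 to 7117796, minus strand) had 1 to 5 reads in SW1990 negative samples, 0 to 2 in SW1990 positive samples and 0 in all 6 CFPAC-1 samples. A count of 0 allows up to 3 reads, which at the CFPAC-1 depths is 0.0119 to 0.0312 RPKM. LAMA2 (chromosome 6, 129204283 to 129837711, plus strand) had 4 to 23 reads per sample, or 0.0243 to 0.109 RPKM, and its groups overlapped. LAMA1 was thus above 0 in each SW1990 negative sample and in no CFPAC-1 sample, at read counts too low for a fold. Such limits cover counting error only. The 7 fitted chains had 124 to 12860 reads per sample.

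Genes that bind, carry or process laminins were taken from lists of known function. Of 9 receptors, 4 passed an adjusted p of 0.05 in SW1990, 1 higher and 3 lower, against 28.2% of all genes. In CFPAC-1, 7 passed, 1 higher and 6 lower, against 36.5% of all genes past that p. Of the 9, 2 were called in CFPAC-1, both lower, against 9.78% of all genes called. ITGA1, the collagen and laminin binding integrin alpha-1, had 16.8, 17.9 and 18.6 RPKM in CFPAC-1 negative and 5.61, 8.42 and 5.60 RPKM in positive samples, and fell by 1.45 on the log2 scale (adjusted p = 0.000363). In SW1990 it fell by 1.00 (adjusted p = 0.00352), at the 2-fold line, from 1.32 ± 0.37 to 0.595 ± 0.039 RPKM. ITGA7, a muscle laminin receptor, fell in CFPAC-1 by 1.07 (adjusted p = 0.0131), from 1.84 ± 0.34 to 0.819 ± 0.072 RPKM, and changed by 0.47 in SW1990 (adjusted p = 0.265). Its CFPAC-1 call was lost with a pseudocount of 1 (-0.64), where the adjusted p was 0.00185, and without CFPAC-1 negative replicate 2 (-0.96), negative replicate 3 or positive replicate 2, with adjusted p-values of 0.0378 to 0.0542. ITGB1, the beta subunit shared by most laminin integrins and the receptor with the highest mean over all 12 samples, changed by -0.29 in SW1990 (adjusted p = 0.0465) and -0.23 in CFPAC-1 (adjusted p = 0.0897).

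ITGB4, whose product pairs with integrin alpha-6 to hold laminin-332 at hemidesmosomes, is named here after its values were seen. It had 84.4, 96.0 and 95.3 RPKM in SW1990 negative and 94.6, 98.4 and 96.4 RPKM in positive samples, a log2 difference of 0.072 (-0.16 to 0.30), while LAMA3 and LAMB3 rose. In CFPAC-1 it had 177, 190 and 209 RPKM in negative and 88.9, 112 and 114 RPKM in positive samples, and fell by 0.88 (adjusted p = 0.000132). The changes of ITGB4 differed between the lines by 0.95 (adjusted p = 0.000769). Of the 4 other hemidesmosome genes, 1 was called in SW1990, against 12.1% of all genes, and 0 in CFPAC-1, against 9.78%. At an adjusted p under 0.05, 2 of the 4 passed in SW1990, both higher, against 28.2% of all genes. In CFPAC-1 1 passed, lower, against 36.5%. The called gene was COL17A1, the transmembrane collagen of the hemidesmosome. COL17A1 had 4.14, 4.18 and 3.68 RPKM in SW1990 negative and 13.2, 13.8 and 10.8 RPKM in positive samples, a rise by 1.62 (SE 0.38, adjusted p = 0.00643). In CFPAC-1 its samples overlapped, at 7.08, 14.9 and 16.0 against 4.48, 5.09 and 13.4 RPKM, with a change of -0.81 (adjusted p = 0.113) that became -1.30 (adjusted p = 0.00502) without CFPAC-1 positive replicate 3. CD151, the tetraspanin of laminin-binding integrins, changed by -0.0064 in SW1990 (adjusted p = 0.988) and fell by 0.35 in CFPAC-1 (adjusted p = 0.0290).

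Among 13 fitted basement membrane partners of 14, 1 was called higher and 2 lower in SW1990, and 1 higher in CFPAC-1, against 12.1% and 9.78% of all genes called. At an adjusted p under 0.05, 8 of the 13 passed in SW1990, 2 higher and 6 lower, against 28.2% of all genes. In CFPAC-1, 3 of the 13 passed, 2 higher and 1 lower, against 36.5%. NID2, a nidogen that links laminin to collagen IV, rose in both lines, from 3.21, 2.45 and 2.45 to 8.61, 6.21 and 7.94 RPKM in SW1990 (1.45, adjusted p = 0.000521) and from 0.519, 0.263 and 0.388 to 4.25, 2.96 and 2.90 RPKM in CFPAC-1 (2.84, adjusted p = 1.50e-05). COL18A1, a basement membrane proteoglycan and the source of endostatin, fell by 1.83 in SW1990 (adjusted p = 1.83e-05), from 69.7, 94.7 and 108 to 21.8, 27.3 and 26.5 RPKM, and changed by -0.13 in CFPAC-1 (adjusted p = 0.617). COL7A1, the anchoring fibril collagen that binds laminin-332, fell by 1.80 in SW1990 (adjusted p = 0.000742), from 3.26 ± 1.05 to 0.850 ± 0.21 RPKM. In CFPAC-1 it changed by 0.050 (adjusted p = 0.923), a sign that turned under median centring. AGRN, the laminin-binding proteoglycan agrin and the partner with the highest mean over all 12 samples, changed by 0.16 and -0.34 (adjusted p = 0.443 and 0.0736).

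Dystroglycan binds laminin globular domains through a sugar chain built by dedicated enzymes. Of 12 such enzymes fitted, LARGE, which extends that chain, was called lower in SW1990, by 1.38 on the log2 scale (-1.38, adjusted p = 0.00109), at 0.913 ± 0.34 and 0.285 ± 0.10 RPKM, a call lost with a pseudocount of 1, where the change was -0.56. That made 1 of 12 called in SW1990, against 12.1% of all genes. In all, 4 of the 12 passed an adjusted p of 0.05 in SW1990, each of them lower, against 28.2% of all genes. In CFPAC-1, 5 of the 12 passed an adjusted p of 0.05, 3 higher and 2 lower, all under 2-fold, against 36.5% of all genes. B3GNT1, with the highest mean of them over all 12 samples, fell by 0.59 in SW1990 (adjusted p = 0.00732) and by 0.67 in CFPAC-1 (adjusted p = 0.00333). Of 4 fitted genes for proteases that cleave laminin chains or activate those that do, 3 passed an adjusted p of 0.05 in SW1990, 1 higher and 2 lower, and 4 in CFPAC-1, all lower, against the same 28.2% and 36.5% of all genes. PLAT, the tissue plasminogen activator, had 521, 575 and 608 RPKM in CFPAC-1 negative and 77.3, 136 and 259 RPKM in positive samples and fell by 2.02 (adjusted p = 0.00113). PLAU, the urokinase gene, rose by 0.77 in SW1990 (adjusted p = 0.00132) and fell by 0.45 in CFPAC-1 (adjusted p = 0.0260).

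**Figure D4:**
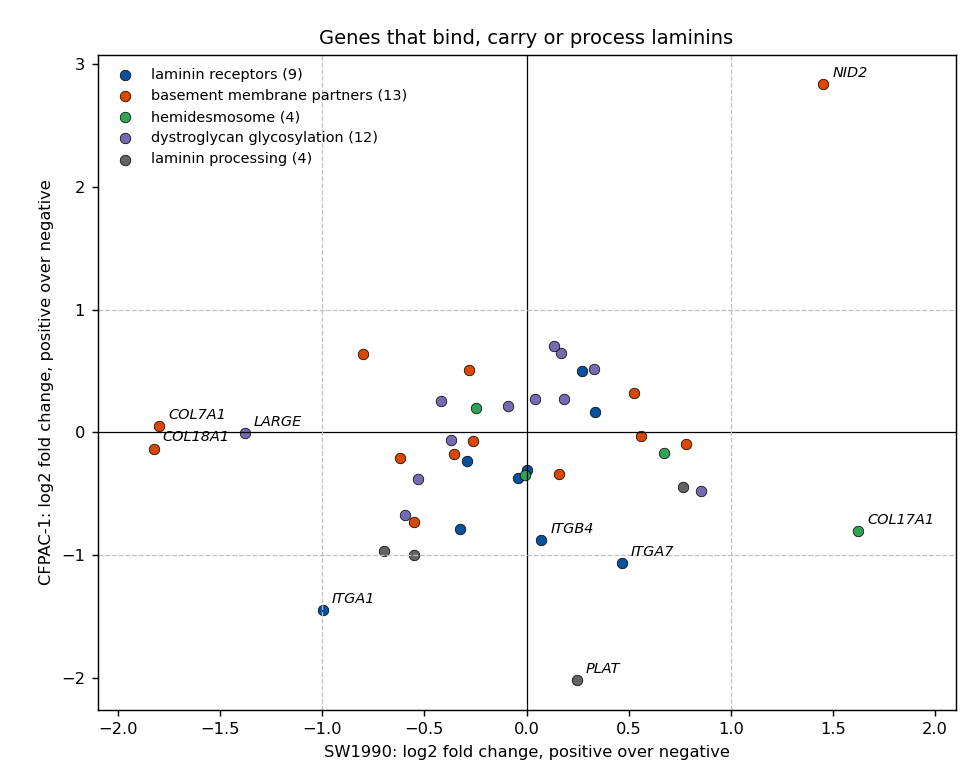
Log2 fold change of positive over negative cells in SW1990 (horizontal) and CFPAC-1 (vertical) for 42 fitted genes that bind, carry or process laminins, with 1 point per gene coloured by list and dashed lines at 2-fold. Genes called in a line and ITGB4 are named, and NID2 is the gene past 2-fold upward in both, at 1.45 and 2.84.

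Over the 12 samples, the genes whose log2 levels ran most like each chain were listed among 13267 genes with a mean of at least 1 RPKM. For LAMA3 they included VILL and WWC1 (Pearson r = 0.984 each), and for LAMB3 they included BCL2L1 (0.972) and FAM108C1 (0.965). LAMA4 was followed by NDP (0.987), RAB3IL1 (0.982) and ZNF664-FAM101A (0.981), and LAMA5 less closely by B4GALNT3 (0.950), ELMO3 (0.939) and TNK2 (0.928). For LAMB1 they were NAV1 (0.989), RAI14 (0.988) and ZNF532 (0.987), for LAMB2 LBH (0.991), COL6A2 (0.988) and VASH1 (0.987), and for LAMC1 CD99L2 (0.978), PMP22 (0.972) and SPON2 (0.967). The 12 points fall into 4 groups of 2 lines, so such values describe shared group levels.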

How the data were processed

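RNA was sequenced from 12 samples. The deposited values are RPKM, made by the authors with QuasR after alignment to hg19 (GRCh37). Annotation, strand use and treatment of multiply matching reads are not given in the sources used here. The library kit is SureSelect strand-specific per the labels and TruSeq per the study's methods.

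Genes averaging at least 0.1 RPKM (16236) entered limma 3.58.1 in R 4.3.3 as log2(RPKM + 0.1), with 4 group means, an intensity trend, 2-sided tests and Benjamini-Hochberg adjustment across these genes. Called means over 2-fold at an unadjusted p under 0.01, except for the difference between lines (adjusted p under 0.05). "Rose" and "fell" mean an adjusted p under 0.05. Whole reads were recovered from the RPKM steps for 100% of the 19654 genes above 0, to within 0.01 of a read. Scripts were tested on simulated data.

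Named partners are, per list, up to 4 called genes with the largest change and the gene with the highest mean RPKM. Of the genes that the likeness rule names, 2 are not reported here, and 1 dystroglycan enzyme was not matched. Members and lists were chosen with earlier results of these data known. GRCh37 positions are from GENCODE 44.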

Additional observations from a re-analysis of the deposited data

Results flagged for a closer look

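The change from GCTM-5 negative to positive cells differed between SW1990 and CFPAC-1 in limma's test of the difference itself, at an adjusted p under 0.05, for 6 laminin chains and 8 named partners. Most partners were named for being called in a line, so their count is no measure of the lists. Over all fitted genes of the lists, 3 of 9 receptors, 5 of 13 basement membrane partners and 2 of 4 hemidesmosome genes passed. So did 2 of 12 dystroglycan enzymes and 2 of 4 processing genes, against 26.9% of all genes. All values are the SW1990 change minus the CFPAC-1 change on the log2 scale. Among the chains it was 2.21 for LAMA3, 1.66 for LAMB3, 0.98 for LAMA5, -1.33 for LAMA4, -0.99 for LAMC1 and -0.49 for LAMB1. Of the laminin receptors, ITGA7 differed by 1.54. Of the basement membrane partners, NID2, which rose in both lines, differed by -1.38, COL7A1 by -1.85 and COL18A1 by -1.69. COL17A1 of the hemidesmosome differed by 2.43, and LARGE, the dystroglycan enzyme, by -1.37. Of the plasminogen activators, PLAT differed by 2.27 and PLAU by 1.21. With a pseudocount of 1 the NID2 difference was -0.43 and did not pass (adjusted p = 0.158). No test for a single outlying value was run within the groups of 3 samples.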

How the results depend on the processing

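The counts of called chains in the 5 comparisons were recomputed under up to 11 alternatives and without each of the 12 samples. They stayed within 1.5 times the main count except without a fold threshold, where at an adjusted p under 0.05 the counts were 7 for SW1990, 1 for CFPAC-1, 7 for the lines' negative cells and 5 for their positive cells. With the replicate number within each line as a block, the counts were 3, 0 and 6 for SW1990, CFPAC-1 and their difference, as without it. Such a block cannot be told apart from the lines, so the comparisons between lines have no value under it. In a check for pairing within each line, positive and negative samples of the same number correlated by 0.185, 0.0163 and 0.116 in SW1990 and by -0.0195, 0.00126 and -0.0593 in CFPAC-1. Those of different number correlated by -0.254 to 0.162 in SW1990 and by -0.0326 to 0.0423 in CFPAC-1. With 3 samples per group this check cannot exclude pairing. The numbers were not taken to pair samples. LAMC1 in SW1990, just under 2-fold, was called in 4 of 24 settings, among them without SW1990 negative replicate 1 (-1.008) and without SW1990 positive replicate 3 (-1.002). Small changes whose sign turned were those of LAMA4 in CFPAC-1 (-0.054 with median centring, -0.016 with quantile normalization, -0.12 to 0.17 when samples were left out), LAMC1 in CFPAC-1 (-0.092, -0.099, and -0.076 to 0.11), COL7A1 in CFPAC-1 (-0.050 with median centring, -0.011 with voom, -0.17 to 0.23), CD151 in SW1990 (0.042 with median centring, -0.087 to 0.043) and the ITGB1 difference between lines (0.087 with median centring, -0.12 to 0.016). By leaving out samples alone, LAMA3 in CFPAC-1 ran from -0.0035 to 0.49, LARGE in CFPAC-1 from -0.072 to 0.055, and the B3GNT1 difference between lines from -0.050 to 0.19. Among single-gene values, 26 gained a call under the alternatives, 20 of them by construction where the fold threshold was dropped, and 4 lost one, 3 of them with a pseudocount of 1. When samples were left out, 8 gained and 3 lost one. The cause of the other shifts was not tested. Depth limits LAMA1 and LAMA2, and 3 sorts per group limit the exact tests to p = 0.1.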
